A study of Mus musculus with 12 samples.

Results

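The semaphorins, Slits and netrins and their receptors were followed in the developing mouse neural tube: 48 genes out of 18193 measured, 27 of them ligands and 21 receptors. Membership was decided by gene symbol in the platform annotation, whatever the gene's values, but the group was chosen with earlier results of these data known. The ligands were the semaphorins of classes 3 to 7, Slit1 to Slit3 and the netrins Ntn1, Ntn3, Ntn4 and Ntn5, and the receptors were the neuropilins, plexins, Robo and Unc5 proteins, Dcc and Neo1.

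Neural tubes were micro-dissected from ICR (CD-1) embryos at gestation days 8.5 (GD8.5), 9.0 (GD9.0) and 9.5 (GD9.5), counted from the day of the vaginal plug. Total RNA was hybridised to Affymetrix mouse genome expression arrays, with 4 arrays labelled as biological replicates at each stage. The labels name no transgene and no agent at any stage, and the strain was the same throughout. The labels give no litter or pooling, so p-values measure the spread between these RNA samples, and in dissected tissue fewer cells of a type and less RNA per cell cannot be told apart.

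Guidance cues are secreted or membrane-bound proteins that attract or repel growing axons and migrating cells, and most also act in vessels, neural crest and other tissues of the embryo. Class 3 semaphorins are secreted and bind neuropilins, which pair with plexins that carry the signal into the cell, whereas most other semaphorins bind plexins directly. In the ventral midline of the neural tube, the floor plate secretes netrin-1, which attracts axons through Dcc and can repel them when Unc5 proteins take part, and Slits, which repel axons through Robo receptors.

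The arrays of GD8.5 replicates 1 and 2 were deposited as linear intensities, with medians of 92.2 and 98.3. The other 10 arrays held log2 values whose sorted values differed by at most 0.272 between arrays. Tests were therefore run on 2 arrays of GD8.5, 4 of GD9.0 and 4 of GD9.5 with limma, with Benjamini-Hochberg adjustment over all genes, and a change counts as called below where its adjusted p is under 0.05. Every level below is a deposited log2 value of the gene's brightest probe set, every change is a difference of stage means on the log2 scale with its standard error (SE), and levels of different genes are not comparable. Values up to 1.43 were taken as background, the 95th percentile of the levels of 38 olfactory receptor genes, each averaged over the 10 log2 arrays.

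The dissected tissue carried the neural markers throughout, since 12 of 12 neural progenitor genes were above background at every stage, with list means of 5.86, 6.39 and 7.13 at GD8.5, GD9.0 and GD9.5. Of 12 neuron markers, 7 were called higher and 2 lower in the first interval (GD8.5 to GD9.0), and 11 higher in the second (GD9.0 to GD9.5). Dcx, Neurod1, Nhlh1 and Nhlh2 were at or below background at GD8.5. Genes of other tissues were also present. Cardiac muscle markers averaged 5.97, 2.98 and 1.5 in stage order, with array ranges of 5.91 to 6.03, 2.95 to 3.02 and 1.43 to 1.54, and 12 of 12 were called lower in each interval. Endoderm and yolk sac markers averaged 6.11, 3.33 and 1.61, with array ranges of 6.09 to 6.13, 3.29 to 3.39 and 1.58 to 1.64, and 11 and then 9 of 11 were called lower. At GD9.5, 6 of the 12 cardiac genes, Tnnt2 and Myh6 among them, were at or below background. The surface ectoderm list averaged 5.13, 4.58 and 4.01, with 8 and then 9 of 11 genes called lower. The head and paraxial mesenchyme list averaged 4.62, 4.47 and 4.49, but its 12 genes moved both ways. In the first interval 3 were called higher and 7 lower, and in the second 3 higher and 4 lower. Red cell markers averaged 4.47, 5.28 and 5.82, and 7 of 9 macrophage markers were at or below background at GD8.5 and GD9.0. The part of these tissues in the changes below was not tested beyond the marker values given beside them.

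Of the 48 guidance genes, 43 were above background at all 3 stages (89.6%, against 67.3% of all genes) and 46 at 1 stage or more (95.8%, against 75.4%). Ntn3 and Unc5d were at or below background at every stage. At least 1 of the 3 stage comparisons was called in 26 guidance genes (54.2%), made up of 13 ligands and 13 receptors, against 37.0% of all genes. At GD9.0 compared with GD8.5, 6 guidance genes were called higher and 7 lower, 13 of 48 (27.1%), where 13.5% of all genes were called. At GD9.5 compared with GD9.0, 12 were called higher and 4 lower (33.3%, against 24.3% of all genes). Across the whole day, at GD9.5 compared with GD8.5, 11 were called higher and 10 lower (43.8%, against 28.6% of all genes, 15.5% higher and 13.1% lower). The direction was therefore mixed over the whole day, and the later interval held more rises than falls. In all genes 14.1% were called higher and 10.3% lower in that interval. The surplus was smaller in number under other settings, with 11 higher and 7 lower when each array was centred on its median and 5 higher and 2 lower when all 12 arrays were used. Of the guidance calls in that interval 75% were higher, against 57.8% of the calls in all genes. These shares were 61.1% and 37.5% with median centring and 71.4% and 54.8% with all 12 arrays. The arrays of both stages did not overlap in 22 guidance genes for the first interval (45.8%, against 34.5% of all genes), 16 for the second (33.3%, against 27.0%) and 27 over the whole day (56.2%, against 45.9%). The change in the second interval differed from that in the first in 12 guidance genes, more upward later in 7 and less so in 5, where 6.97% and 4.67% of all genes were called in these directions. The median change over the 48 genes was −0.06 in the first interval and −0.06 over the whole day, against −0.002 and −0.016 over all genes.

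A group of 13 genes was called with a fitted change of at least 1.5-fold in 1 or more stage comparisons and had a mean above background in at least 1 stage, a rule that 11.0% of all genes met without the condition on background. Ntn4 met it by its fitted whole-day change of 0.63, whose GD8.5 mean was below background, so that its fold is a bound of at least 1.49. By comparison, 8 guidance genes passed the call and the fold in the first interval, 5 in the second and 12 over the whole day, against 4.27%, 4.57% and 9.77% of all genes. The 13 were the ligands Slit1, Slit2, Ntn4, Sema3c, Sema3d, Sema3e, Sema4c and Sema5b and the receptors Dcc, Nrp1, Nrp2, Unc5b and Unc5c. Slit2, Dcc and Unc5c were called higher in both intervals, as were 3.12% of all genes. Nrp1 and Nrp2 were called lower in both intervals, as were 1.69% of all genes.

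**Figure D1:**
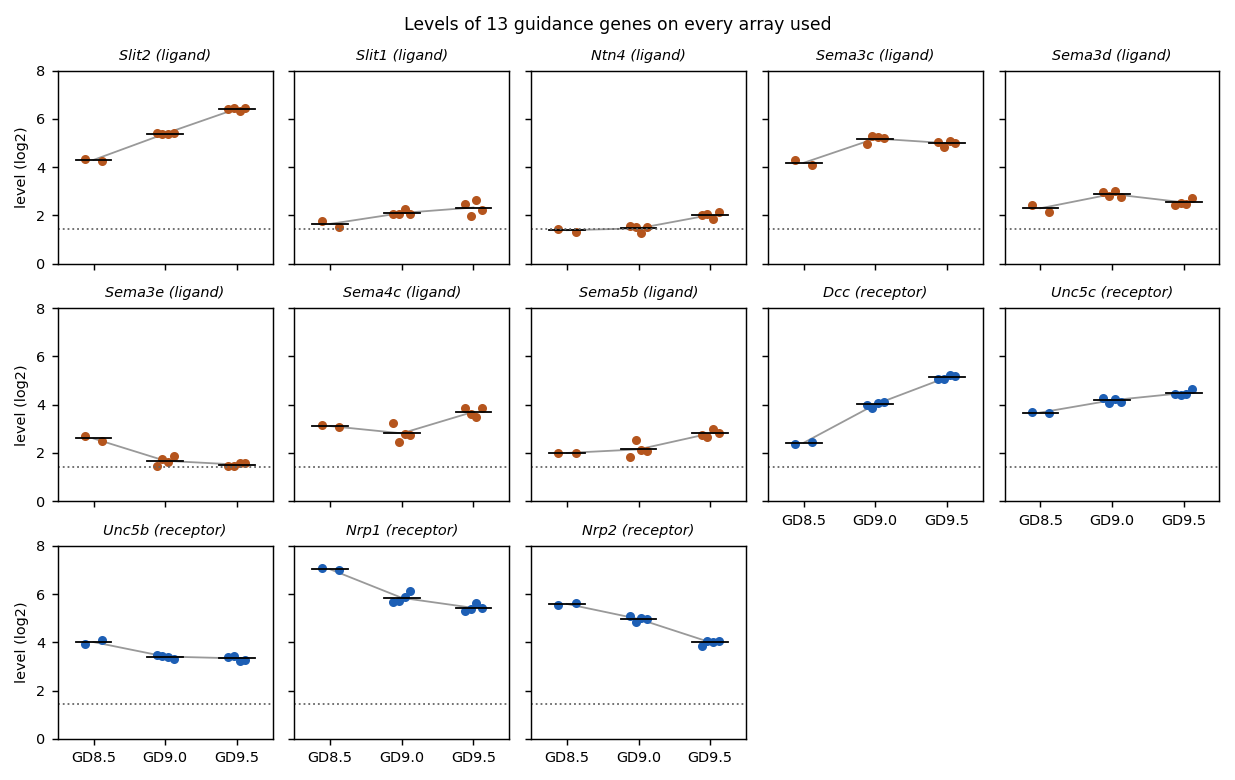
Levels of the 13 guidance genes called with a fitted change of at least 1.5-fold, 1 panel per gene: the y axis is the deposited log2 value, the x axis the stage, points are single arrays (2 at GD8.5, 4 at GD9.0, 4 at GD9.5), bars are stage means and the dotted line is the background level. Slit2 and Dcc step up at both stages, Nrp1 and Nrp2 step down, and Sema3e has both GD8.5 arrays above all later ones.

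Promoter sequence is shown for 4 genes of this group called the same way in both intervals. Of these, 2 rose (Slit2, Unc5c) and 2 fell (Nrp1, Nrp2). Dcc, also called higher in both intervals, is not shown. Each run is the 250 bases before the annotated start, 5′ to 3′ on the plus strand of GRCm38.p6, from RefSeq, which had a promoter entry for 39 of the 48 genes. Capitals mark matches on either strand to TATAAA, the core promoter element bound by the TATA-binding protein. They also mark matches to the GC-rich hexamer GGGCGG, which Sp family factors read. The runs lie at chr5:47982905-47983154 (Slit2), chr3:141465314-141465563 (Unc5c), chr8:128358823-128359072 (Nrp1) and chr1:62703067-62703316 (Nrp2).
Slit2: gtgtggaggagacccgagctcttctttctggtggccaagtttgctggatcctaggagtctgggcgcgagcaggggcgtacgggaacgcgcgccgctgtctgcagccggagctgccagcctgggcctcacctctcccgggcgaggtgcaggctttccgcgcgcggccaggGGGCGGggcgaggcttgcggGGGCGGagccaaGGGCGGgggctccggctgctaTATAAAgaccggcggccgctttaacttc
Unc5c: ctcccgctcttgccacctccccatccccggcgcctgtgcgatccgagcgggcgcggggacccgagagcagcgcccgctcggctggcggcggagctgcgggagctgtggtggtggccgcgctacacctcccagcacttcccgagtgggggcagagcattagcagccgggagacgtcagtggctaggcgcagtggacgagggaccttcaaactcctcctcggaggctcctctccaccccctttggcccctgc
Nrp1: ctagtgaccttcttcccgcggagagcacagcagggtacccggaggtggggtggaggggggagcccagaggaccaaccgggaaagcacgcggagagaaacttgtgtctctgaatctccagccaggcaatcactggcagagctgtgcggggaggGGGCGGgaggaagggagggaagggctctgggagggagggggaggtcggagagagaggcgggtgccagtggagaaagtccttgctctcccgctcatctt
Nrp2: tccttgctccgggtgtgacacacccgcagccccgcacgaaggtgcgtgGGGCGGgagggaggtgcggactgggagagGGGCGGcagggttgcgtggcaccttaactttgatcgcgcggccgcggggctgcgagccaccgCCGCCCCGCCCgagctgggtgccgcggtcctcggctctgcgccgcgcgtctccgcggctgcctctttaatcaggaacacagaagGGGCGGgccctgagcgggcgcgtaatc

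The promoters are GC-rich, at 69.6% for Slit2, 71.2% for Unc5c, 64.4% for Nrp1 and 72.4% for Nrp2. Slit2 has a TATAAA match beginning 28 bases before the start and 3 GGGCGG matches. Unc5c has neither motif, Nrp1 has 1 GGGCGG match and Nrp2 has 5, of which 2 overlap on the minus strand. Among all 32851 promoter entries, 12.4% hold TATAAA and 32.7% hold GGGCGG in the same window. Of the 39 guidance genes with an entry, 1 (2.56%) and 29 (74.4%) do. A gene counts if any of its entries holds the motif, so shares of genes and shares of entries are not counted alike. These 2 motifs were chosen after the sequences had been read. A further 3 motifs were searched on both strands and occur in none of the 4 windows. The E-box CAGATG is found in 2 of the 39 guidance genes (5.13%) and in 14.4% of all entries. Another E-box, CAGCTG, is found in 9 of the guidance genes (23.1%) and in 13% of all entries. The core motif ACAAAG of Sox and Tcf factors is found in 5 of these genes (12.8%) and in 16.5% of all entries. A match is a description of the letters and was not tested for binding.

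Among the ligands, Slit2, a secreted repellent of the floor plate, rose in both intervals. Its level was 4.34 and 4.25 on the GD8.5 arrays, 5.40, 5.37, 5.39 and 5.39 on the GD9.0 arrays and 6.42, 6.46, 6.34 and 6.46 on the GD9.5 arrays. Every array of a later stage was above every array of an earlier one. Slit2 was 1.09 ± 0.06 (SE) higher at GD9.0 than GD8.5 and 1.03 ± 0.05 higher at GD9.5 than GD9.0, about 2.13-fold and 2.04-fold. Over the whole day the rise was 4.35-fold (limma, Benjamini-Hochberg adjusted p = 5.7e-10), and 3 of its 3 probe sets were called higher in that comparison. Calls of single probe sets, here and below, come from a separate fit with adjustment over 45037 probe sets. Slit1, expressed with Slit2 at the ventral midline later in development, read 1.76 and 1.54 at GD8.5, 2.05, 2.04, 2.26 and 2.04 at GD9.0 and 2.46, 1.98, 2.62 and 2.24 at GD9.5. The GD9.5 arrays lay above both GD8.5 arrays and overlapped those of GD9.0, and Slit1 was called over the whole day only, at 0.68 ± 0.15 (1.60-fold). That call was lost without GD8.5 replicate 4 (adjusted p = 0.0747 in limma). Slit3 was not called in any comparison, with stage means of 2.23, 2.01 and 1.98.

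Netrin-1, the chemoattractant of the floor plate encoded by Ntn1, fell and then rose. Its level was 5.49 and 5.43 at GD8.5, 4.77, 4.97, 5.15 and 5.10 at GD9.0 and 5.34, 5.50, 5.34 and 5.26 at GD9.5. The GD9.0 arrays were below all arrays of both other stages, by 0.46 ± 0.10 compared with GD8.5 and with a return of 0.36 ± 0.08 at GD9.5 compared with GD9.0. The first call was lost when either GD8.5 array was left out, the second with all 12 arrays (0.31, adjusted p = 0.052 in limma), and both when the mean of all Ntn1 probe sets replaced the brightest one. The other Ntn1 probe set had a mean level of 1.40, below background. Ntn4, a netrin found in basement membranes, read 1.44 and 1.32 at GD8.5, 1.55, 1.5, 1.26 and 1.53 at GD9.0 and 2.02, 2.05, 1.84 and 2.14 at GD9.5. All GD9.5 arrays were above all earlier ones, a rise of 0.55 ± 0.08 compared with GD9.0 and at least 1.49-fold compared with GD8.5, whose mean was below background. Ntn5 was not called, with stage means of 1.86, 1.77 and 1.62.

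The secreted class 3 semaphorins moved in different directions. Sema3c, which acts on cardiac neural crest through neuropilins, read 4.29 and 4.07 at GD8.5, 4.96, 5.31, 5.26 and 5.21 at GD9.0 and 5.05, 4.85, 5.07 and 5.0 at GD9.5. Both later stages were above GD8.5 on every array, and the rise of 1.01 ± 0.11 (2.01-fold) at GD9.0 was called for 2 of 2 probe sets. Between GD9.0 and GD9.5 the change of −0.19 ± 0.09 was not called. Sema3d read 2.45 and 2.14 at GD8.5, 2.95, 2.82, 3.00 and 2.76 at GD9.0 and 2.44, 2.52, 2.49 and 2.70 at GD9.5. It stood highest at GD9.0, 0.59 ± 0.11 (1.5-fold) above GD8.5, and was 0.34 ± 0.09 lower at GD9.5 than GD9.0, with no overlap of arrays in either interval. The rise was not called without GD8.5 replicate 4 (adjusted p = 0.0595 in limma), nor the fall with all 12 arrays (adjusted p = 0.152) or on the mean of its probe sets. The other Sema3d probe set had a mean level of 1.15, below background.

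Sema3e, the class 3 member that binds plexin-D1 without a neuropilin and guides vessels, fell. It read 2.68 and 2.51 at GD8.5, 1.48, 1.75, 1.60 and 1.87 at GD9.0 and 1.46, 1.46, 1.57 and 1.58 at GD9.5. Both GD8.5 arrays were above all later ones, and the fall was 0.92 ± 0.10 (1.90-fold) at GD9.0 and 1.08 ± 0.10 (2.12-fold) at GD9.5, each compared with GD8.5. These falls came to 1.59 and 1.74 with all 12 arrays. Sema3a, the prototype repellent of sensory and motor axons, was 0.43 ± 0.06 lower at GD9.5 than GD9.0, and 3 of 3 probe sets were called lower there. Sema3b, Sema3f and Sema3g were not called.

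The transmembrane class 4 and class 5 semaphorins held 2 genes of at least 1.5-fold change. Sema4c, a ligand of plexin-B2, read 3.14 and 3.08 at GD8.5, 3.25, 2.44, 2.80 and 2.76 at GD9.0 and 3.88, 3.60, 3.50 and 3.85 at GD9.5. All GD9.5 arrays were above all others, by 0.89 ± 0.15 (1.85-fold) compared with GD9.0 and 0.59 ± 0.18 (1.51-fold) compared with GD8.5, and the second of these calls was lost without any 1 of GD8.5 replicate 3 or 4 and GD9.5 replicate 1 or 4. Sema5b read 2.00 and 2.00 at GD8.5, 1.85, 2.52, 2.14 and 2.09 at GD9.0 and 2.75, 2.66, 2.98 and 2.85 at GD9.5. The GD9.5 arrays were again above all others, by 0.66 ± 0.12 (1.58-fold) compared with GD9.0, and 2 of 2 probe sets were called higher in that interval and over the whole day. With all 12 arrays the later-interval change of Sema5b was 0.64 and was not called (adjusted p = 0.115 in limma).

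The remaining ligand calls were smaller. Sema4d, a ligand of plexin-B1, was 0.45 ± 0.08 lower at GD9.0 than GD8.5, but the value was 0.08 and not called with all 12 arrays. Sema5a was 0.44 ± 0.10 lower at GD9.5 than GD8.5, a call lost on the mean of its probe sets. Sema6d, which binds plexin-A1, was 0.51 ± 0.10 higher at GD9.0 than GD8.5. That call was lost without either GD8.5 array, with all 12 arrays (adjusted p = 0.0907 in limma) and on the mean of its probe sets, where the change was 0.105 (adjusted p = 0.423). The other Sema6d probe sets had mean levels of 1.29 to 1.35, below background. The 14 ligands with no call were Ntn3, Ntn5, Sema3b, Sema3f, Sema3g, Sema4a, Sema4b, Sema4f, Sema4g, Sema6a, Sema6b, Sema6c, Sema7a and Slit3. Their whole-day changes ranged between −0.32 and 0.23, and the 95% intervals of those changes reached −0.62 and 0.61.

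Among the receptors, Dcc, which mediates attraction to netrin-1, had the largest whole-day rise of the 48 genes. Its level was 2.38 and 2.46 at GD8.5, 4.01, 3.86, 4.07 and 4.10 at GD9.0 and 5.07, 5.05, 5.23 and 5.19 at GD9.5. The 3 stages did not overlap, and Dcc was 1.59 ± 0.08 (3.01-fold) higher at GD9.0 than GD8.5 and 1.13 ± 0.07 (2.18-fold) higher at GD9.5 than GD9.0. The whole-day rise was 6.56-fold (limma, Benjamini-Hochberg adjusted p = 8.1e-10). Of its 3 probe sets 2 were called higher, and the one that was not had a mean level of 1.86. Beside these rises, the neuron marker list averaged 2.86, 3.48 and 5.08 in stage order, on array ranges of 2.83 to 2.89, 3.43 to 3.53 and 5.01 to 5.13, and its part in the change of Dcc was not tested.

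The Unc5 receptors, which turn the response to netrin towards repulsion, split by member. Unc5c read 3.68 and 3.67 at GD8.5, 4.29, 4.09, 4.22 and 4.13 at GD9.0 and 4.45, 4.39, 4.45 and 4.65 at GD9.5. Each stage was above the one before it on every array, with rises of 0.51 ± 0.08 and 0.30 ± 0.07 and a whole-day rise of 1.76-fold. The later rise was not called with all 12 arrays (0.25, adjusted p = 0.53 in limma). The dimmer of the 2 Unc5c probe sets was called higher over the whole day but in neither interval. Its changes there were 0.49 and 0.40 (adjusted p = 0.101 and 0.0636 in limma). Unc5b, a receptor of endothelial tip cells as well as neurons, read 3.92 and 4.10 at GD8.5, 3.49, 3.43, 3.40 and 3.32 at GD9.0 and 3.40, 3.44, 3.21 and 3.28 at GD9.5. Both GD8.5 arrays were above all later ones, and the fall of 0.60 ± 0.09 (1.52-fold) at GD9.0 was called for 2 of 2 probe sets, with no call in the later interval (−0.08 ± 0.07). Unc5a and Unc5d were not called.

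Neogenin, encoded by Neo1 and closest to Dcc in structure, was 0.39 ± 0.06 higher at GD9.5 than GD9.0 by its brightest probe set, on non-overlapping arrays. Its probe sets disagreed, with 2 of 5 called higher and 1 called lower, at −1.0, in that interval. The mean over them gave −0.06.

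Both neuropilins fell across the day. Nrp1, which binds class 3 semaphorins and also VEGF on endothelium, read 7.07 and 6.98 at GD8.5, 5.65, 5.72, 5.89 and 6.11 at GD9.0 and 5.28, 5.38, 5.61 and 5.44 at GD9.5. Each stage was below the one before it on every array, with a fall of 1.18 ± 0.12 (2.27-fold) at GD9.0 compared with GD8.5 and of 0.42 ± 0.10 (1.34-fold) at GD9.5 compared with GD9.0. The whole-day fall was 3.03-fold (limma, adjusted p = 2.3e-06), and 4 of 4 probe sets were called lower in all 3 comparisons. With all 12 arrays the Nrp1 falls that involve GD8.5 were smaller. The first-interval change was −0.83 and the whole-day change −1.27, against −1.18 and −1.60, and both were still called (limma, adjusted p = 0.0112 and 0.000293). The later fall, between stages that gained no array, was 0.44 and was not called (adjusted p = 0.157).

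Nrp2, the neuropilin preferred by Sema3f, read 5.56 and 5.62 at GD8.5, 5.08, 4.84, 5.0 and 4.95 at GD9.0 and 3.86, 4.07, 4.02 and 4.05 at GD9.5. Its stages did not overlap either, with falls of 0.62 ± 0.08 (1.54-fold) in the first interval and 0.97 ± 0.07 (1.96-fold) in the second. Over the whole day Nrp2 was 3.01-fold lower (limma, adjusted p = 8.1e-08), in 4 of 4 probe sets. Other lists moved beside the neuropilins. The endothelial list averaged 3.48, 3.31 and 3.16 in stage order, with array ranges of 3.47 to 3.49, 3.24 to 3.34 and 3.13 to 3.18, and 4 of its 12 genes were called lower and 1 higher in the first interval and 5 lower in the second. Tie1 was at or below background at GD8.5 and GD9.0. The neural crest list, 9 genes, averaged 4.88, 4.76 and 4.41, on array ranges of 4.87 to 4.89, 4.74 to 4.78 and 4.40 to 4.43, with 5 lower and 2 higher and then 5 lower and 1 higher. The part of these cells, and of the cardiac and yolk sac tissue above, in the neuropilin changes was not tested.

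Plexins, the signalling subunits, were called in the later interval or over the whole day, in their brightest probe sets by less than 1.5-fold. Plxna2, Plxnb1, Plxnb2 and Plxnd1 were called higher at GD9.5 than GD9.0, by 0.41 ± 0.09, 0.36 ± 0.08, 0.23 ± 0.07 and 0.45 ± 0.13. For Plxna2, 3 of 4 probe sets were called higher in that interval and for Plxnb1 2 of 2. Dimmer probe sets of both genes gave larger called changes, 0.62 ± 0.09 in the later interval and 0.81 ± 0.11 over the whole day for Plxna2 and 0.69 ± 0.08 over the whole day for Plxnb1. In the fit of all probe sets the later rise of Plxnb2, read by 1 probe set, was not called (adjusted p = 0.0624 in limma). With all 12 arrays none of these 4 rises was called. Their values were then 0.35 for Plxna2, 0.30 for Plxnb1, 0.18 for Plxnb2 and 0.39 for Plxnd1. Leaving out 1 array lost the call of Plxnb2 in 8 of 10 cases and that of Plxnd1 in 4. Plxna4 was called lower over the whole day, by 0.28 ± 0.09, a call lost in 6 of 10 single-array omissions and in 4 of 8 other alternatives. Plxna1, Plxna3, Plxnb3 and Plxnc1 were not called.

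Among the Slit receptors, Robo1 and Robo3 had a call, both under 1.5-fold. Robo1 was 0.25 ± 0.06 lower at GD9.0 than GD8.5, and the change of −0.03 ± 0.05 in the later interval was not called. The first call was lost without GD8.5 replicate 3, with only the 2 stages in the fit (adjusted p = 0.0547 in limma), with the replicate block (0.0725) and on the mean of its probe sets, where the change was −0.08 (0.524). With all 12 arrays the first-interval change was −0.41. Over the whole day Robo1 was 0.28 ± 0.06 lower and called (adjusted p = 0.00522 in limma). That whole-day call was lost without GD8.5 replicate 3 and on the mean of its probe sets. Robo3, which lets commissural axons cross the midline, was at 1.59 at GD8.5 and below background afterwards, at least 1.11-fold lower at GD9.5 than GD8.5, and that call was lost in 8 of 10 single-array omissions and in 3 of 7 other alternatives. Robo2 and Robo4 were not called. Over the 8 receptors with no call, whole-day changes ranged between −0.32 and 0.26, and their 95% intervals reached −0.66 and 0.60.

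**Figure D2:**
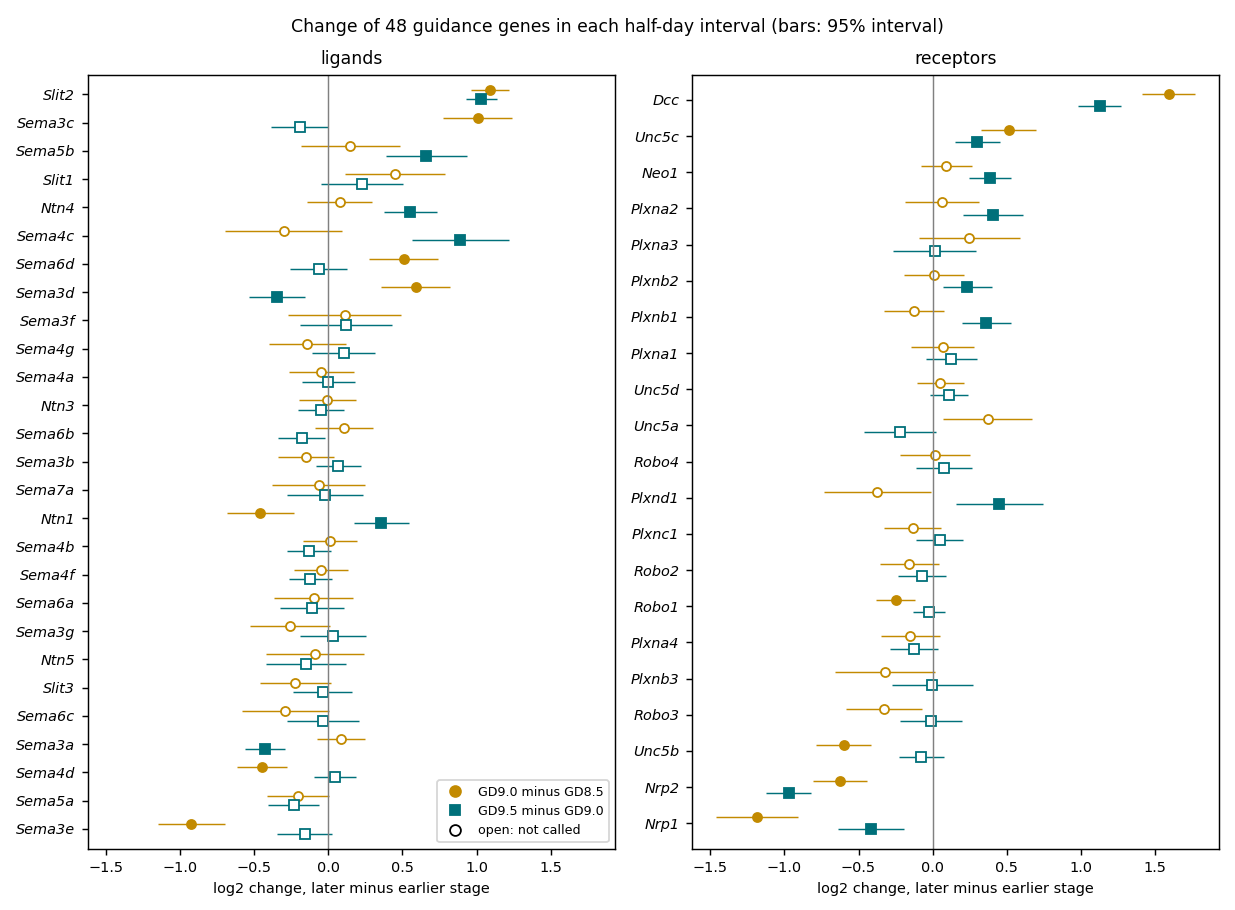
Change of each of the 48 guidance genes, ligands left and receptors right, ordered by the whole-day change: the x axis is the log2 change, later minus earlier stage, circles are GD9.0 minus GD8.5, squares GD9.5 minus GD9.0, bars 95% intervals, and open symbols are not called. Slit2, Dcc and Unc5c lie right of 0 and Nrp1 and Nrp2 left of 0 in both intervals, and Ntn1 and Sema3d change sides.

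The 48 genes were read by 111 probe sets naming 1 gene each, of which 85 were above background on average. With adjustment over 45037 probe sets, 42 were called over the whole day, and 40 of these were above background. Under that adjustment 2 of the 21 whole-day calls made over genes were lost, those of Plxna4 (adjusted p = 0.0571 in limma) and Robo3 (0.063). Neo1 was the 1 gene whose probe sets were called in opposite directions in a comparison. Among genes with more than 1 probe set, Nrp1 and Nrp2 (4 each) and Slit2 (3) had whole-day calls in every probe set. So did Ntn4, Sema3c, Sema5b, Unc5b and Unc5c, with 2 each. The calls of Ntn1, Sema3d, Sema4d, Sema5a, Sema6d, Robo1 and Slit1 came from the brightest probe set alone. For Ntn1 and Sema3d these were calls in the intervals, not over the whole day. The other probe sets of Ntn1, Sema3d and Sema6d averaged below background, at 1.40, 1.15 and 1.29 to 1.35. Those of Robo1 averaged 1.56 and 1.14, of Sema4d 1.62 and 1.24, of Sema5a 2.39, 1.015 and 1.01, and of Slit1 1.69. The mean of all probe sets of a gene includes these dimmer ones.

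**Figure D3:**
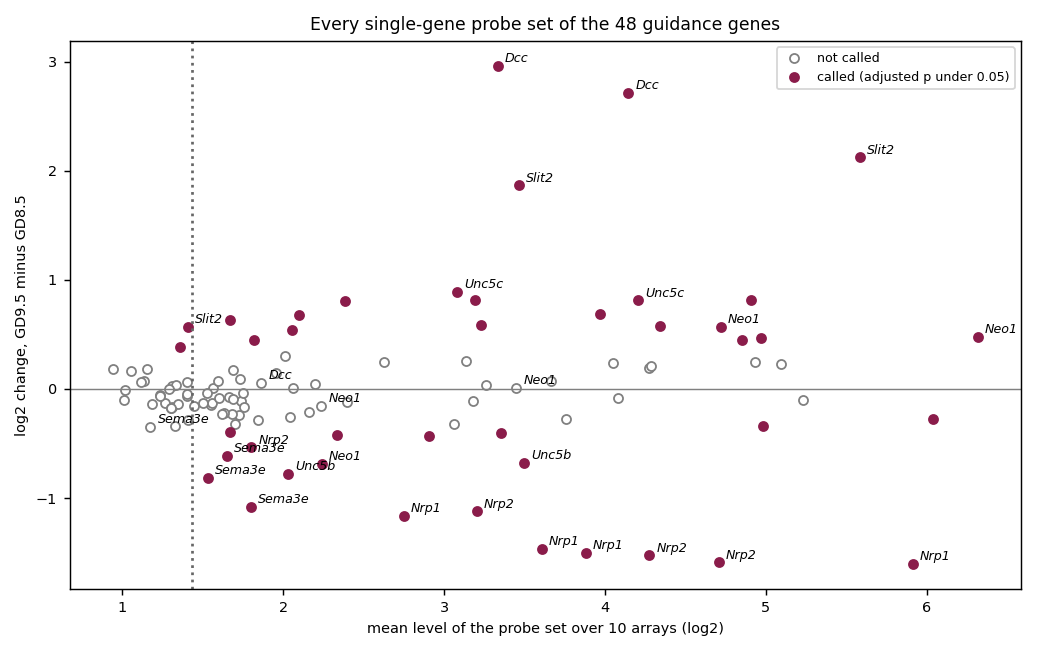
All 111 probe sets of the 48 genes: the x axis is the mean log2 level over 10 arrays, the y axis the log2 change, GD9.5 minus GD8.5, filled points are called with adjustment over all probe sets, open points are not, and the dotted line is the background level of 1.43. The 4 probe sets each of Nrp1 and Nrp2 all lie below 0, and the probe sets of Neo1 lie on both sides.

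The linear GD8.5 arrays were compared with the rest by rank, which needs no common scale. Values are percentiles of the gene's brightest probe set among all 45037 probe sets other than controls. Slit2 stood at 78.2 and 77.1 on the linear arrays and at 75.9 and 75.6 on the log2 arrays of GD8.5. These were below 82.8 to 83.1 at GD9.0 and 88.8 to 89.7 at GD9.5. Dcc stood at 54.4, 48.3, 60.0 and 61.0 on the 4 GD8.5 arrays, below all GD9.0 arrays (72.8 to 74.4) and GD9.5 arrays (80.6 to 81.6). Both genes therefore ranked lower at GD8.5 on the linear arrays too. Nrp1 stood at 89.4, 88.3, 92.6 and 92.4 on the GD8.5 arrays, above 84.8 to 87.5 at GD9.0 and 82.0 to 84.2 at GD9.5. Nrp2 stood at 84.0, 85.9, 84.1 and 84.7 on the GD8.5 arrays, above 79.5 to 80.9 at GD9.0 and 72.3 to 73.9 at GD9.5. Sema3e ranked higher still on the linear arrays, at 72.2 and 73.7, than on the log2 arrays of GD8.5, at 63.3 and 61.6, and between 38.8 and 51.6 afterwards. Other members ranked far lower on the linear arrays than on the log2 arrays of GD8.5. Sema3f stood at 57.2 and 57.3 against 79.9 and 80.5, and Sema6c at 26.3 and 46.6 against 66.9 and 70.4. Unc5a stood at 10.2 and 18.6 against 47.1 and 49.8, and Slit1 at 25.1 and 19.5 against 49.2 and 40.7. Ranks too therefore differed between the 2 kinds of array. The rank order of probe sets agreed less between the 2 linear arrays (Spearman correlation 0.873) than between the 2 log2 arrays of GD8.5 (0.967).

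**Figure D4:**
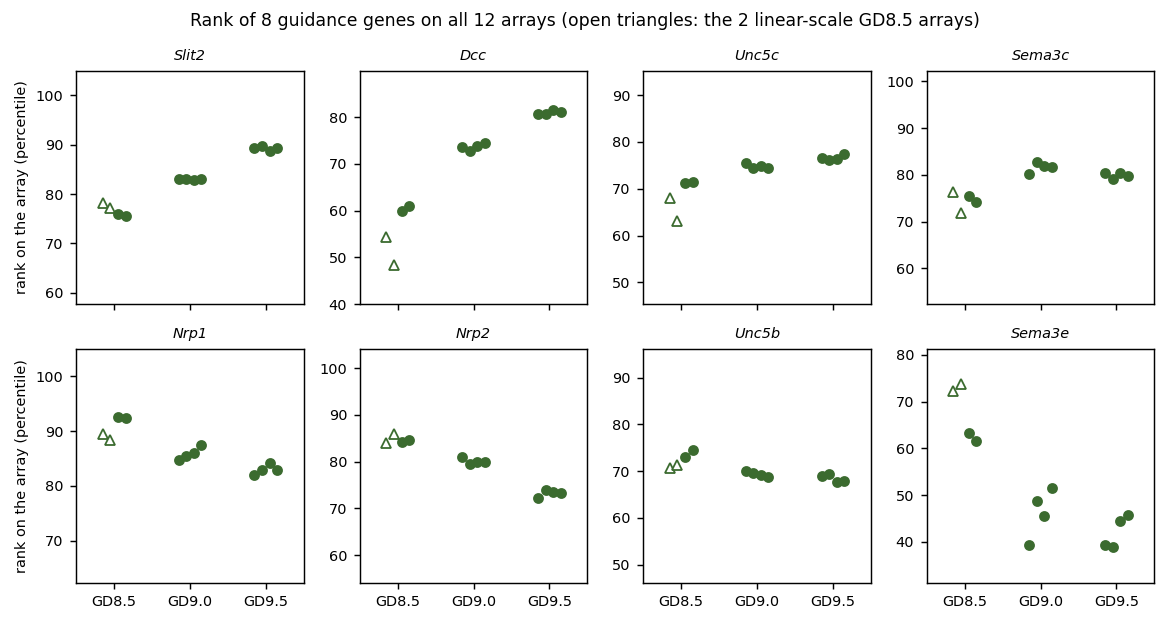
Rank of 8 guidance genes on all 12 arrays. The y axis is the percentile of the gene's brightest probe set among all probe sets of the array other than controls. The x axis is the stage, each point is an array, and open triangles are the 2 GD8.5 arrays on the linear scale. Slit2 and Dcc rank lowest at GD8.5 and Nrp1, Nrp2 and Sema3e highest, on both kinds of GD8.5 array.

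Signalling partners were described from 3 lists of genes named with these receptors, many of which also work elsewhere in the cell. In the plexin and neuropilin list 36 of 37 genes were measured, and 3 were called higher and 3 lower in the first interval, then 14 higher and 2 lower in the second. Dpysl3 and Dpysl4, which couple semaphorin signals to microtubules, were 0.97 ± 0.07 and 0.94 ± 0.09 higher at GD9.0 than GD8.5, and Dpysl2 was 0.22 ± 0.06 higher. Mical1, an actin-oxidising enzyme downstream of plexin-A, was 0.52 ± 0.15 lower and the receptor Met 0.51 ± 0.12 lower. In the later interval Dpysl4 rose by 1.15 ± 0.08, the plexin-binding GTPase Rnd2 by 1.09 ± 0.10 and the Cdk5 activator Cdk5r1 by 0.84 ± 0.12. Met and the VEGF receptor Kdr, also in the endothelial list, were lower by 0.38 ± 0.09 and 0.32 ± 0.07. The list's medians were −0.06 and 0.14, against −0.002 and −0.008 for all genes.

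In the Slit and Robo list 29 of 30 genes were measured, with 3 called higher and 3 lower in the first interval and 12 higher and 3 lower in the second. Srgap3, a Robo-binding GTPase-activating protein, rose in both, by 1.45 ± 0.08 and 0.87 ± 0.07. Sos1 and Nck1 were 0.35 and 0.24 higher in the first interval, while the actin regulator Vasp and the chemokine receptor Cxcr4 were 0.52 and 0.34 lower at GD9.0 than GD8.5. Cxcr4 then rose by 0.64 ± 0.06 beside Evl, a relative of Vasp, at 0.65 ± 0.08, while Sdc4, a heparan sulphate proteoglycan, fell by 1.03 ± 0.11 and Flrt3 by 0.65 ± 0.05. The list's medians were 0.02 and 0.17.

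In the netrin list 26 of 30 genes were measured, with 2 called higher and 3 lower in the first interval and 7 higher and 1 lower in the second. Tubb3, a neuronal tubulin that Dcc binds and that is also in the neuron list, rose by 0.57 ± 0.10 and then 1.62 ± 0.08, and Maged1 rose by 0.28 ± 0.06 in the first interval. Dapk1 and Bcar1 were 0.45 ± 0.11 and 0.34 ± 0.06 lower at GD9.0 than GD8.5. In the later interval the kinase Src rose by 0.61 ± 0.10 and Draxin, a secreted ligand of Dcc, by 0.58 ± 0.14, and Rgmb, a ligand of Neo1, fell by 0.97 ± 0.14. The list's medians were −0.05 and 0.15. In all genes 6.78% were called higher and 6.74% lower in the first interval, and 14.1% and 10.3% in the second.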

How the data were processed

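RNA of 12 neural tube samples, 4 per stage, was measured on 1-colour Affymetrix mouse genome arrays. The submitters' processing notes list Affymetrix Expression Console 1.2.1, RMA and GCRMA without saying which made which column. The authors deposited log2 values for 10 arrays and linear intensity values for GD8.5 replicates 1 and 2, whose scale no constant brings onto that of the others. The log2 arrays were used as deposited, and the linear arrays were used for ranks and in 1 alternative, where all 12 were taken to log2 and quantile normalized.

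Of 45101 probe sets, 64 controls were left out, and 34945 name 1 gene and 932 several in the platform annotation. The brightest single-gene probe set stood for each of 18193 genes. limma 3.58.1 in R 4.3.3 fitted 1 mean per stage (7 residual and 3.86 prior degrees of freedom), with Benjamini-Hochberg adjustment over all genes, and the test was checked on simulated data. Each later stage was compared with each earlier one, and the change in the later interval with that in the earlier one. All 45037 probe sets other than controls were also fitted, with adjustment over them. Genes called with at least 1.5-fold fitted change and above background in 1 stage or more are given array by array. From each partner list, up to 3 rises and 2 falls per interval are named. A change to or from a stage mean under background is given as a bound. The background level and the promoter motifs TATAAA and GGGCGG were chosen after the data or sequences were seen, and the members, partner lists and marker lists were chosen with earlier results of these data known. The number of arrays limits the precision.

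Equal replicate numbers across stages gave correlations of −0.06 to 0.10 between 8 pairs of arrays, 1 of them over 0.1, so no block was used in the tests. Alternatives were the 12 arrays, median centring, quantile normalization, a background filter, an intensity trend, the mean of all probe sets, only the stages compared, the replicate block and leaving out each array.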

Additional observations from a re-analysis of the deposited data

Results flagged for a closer look

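The change in the second interval differed from that in the first for 12 of the 48 guidance genes (25%, against 11.6% of all genes; limma, adjusted p under 0.05), given here as the second change minus the first on the log2 scale. A positive value marks a change that was more upward later: Sema4c 1.19, Ntn1 0.82, Nrp1 0.77, Sema3e 0.77, Unc5b 0.52, Sema4d 0.49 and Plxnb1 0.49. A negative value marks one that was less upward later: Sema3c −1.20, Sema3d −0.93, Sema6d −0.58, Sema3a −0.52 and Dcc −0.46. Both intervals share the GD9.0 arrays, so an unusual GD9.0 mean enters both with opposite sign. The differences of Ntn1, Sema3c, Sema3d and Sema3e were called whichever array was left out, but that of Sema3e was not called with all 12 arrays (adjusted p = 0.127 in limma) and that of Ntn1 not on the mean of its probe sets (0.0696), so Sema3c and Sema3d alone held in every alternative run. With all 12 arrays 9 of the 12 differences were not called. Those of the other 8 genes were lost without at least 1 array, Sema3a without GD8.5 replicate 4 alone, Sema4c without GD8.5 replicate 3 or GD9.0 replicate 4, and Dcc without any of 7 arrays.

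In 5 of 96 tested groups of 4 arrays, 1 array stood apart from the other 3 by Dixon's criterion, where chance gives about 1 in 20. Slit1 read 2.26 on GD9.0 replicate 3, against 2.04 to 2.05 on the other GD9.0 arrays. Ntn4 read 1.26 on the same array, against 1.5 to 1.55, and is near background. Sema5a read 2.87 on GD9.0 replicate 1, against 2.98 to 2.99. Robo4 read 1.88 on GD9.5 replicate 1, against 1.73 to 1.76. Sema7a read 1.32 on GD9.5 replicate 4, against 1.74 to 1.80. The cause was not tested.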

How the results depend on the processing

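Of 62 called changes of single guidance genes over the 4 contrasts, 26 stayed called in every alternative and 40 whichever array was left out, and of 130 not called 27 were called in at least 1 alternative. Slit2, Dcc and Nrp2 stayed called in each of the 3 stage comparisons under every alternative run. With all 12 arrays, 22 calls were lost, 2 in the first interval, 9 in the second, 2 over the whole day and 9 between intervals, and 4 of these values reversed, Sema4d at 0.0772 (first interval), 0.0865 (whole day) and −0.0679 (between intervals) and Plxnb1 at −0.15 (between intervals), and Neo1 reversed to −0.0597 in the later interval on the mean of all probe sets; the cause was not tested. In the later interval, all 12 arrays gave 5 guidance genes higher and 2 lower (1256 and 1038 of all genes). The 2 added arrays are of GD8.5, so they enter that interval only through the shared estimate of the spread and the joint normalization. Median centring, which shifted the median of all genes by −0.07, gave 11 higher and 7 lower (1906 and 3177 of all genes), so the share called higher was 61.1% against 75% in guidance genes and 37.5% against 57.8% in all genes. Between intervals, 7 guidance genes were higher and 5 lower, against 1 and 2 with 12 arrays (660 and 426 of all genes), 4 and 7 with median centring (1655 of all genes lower), 3 lower on the mean of probe sets, and 1409 of all genes lower with an intensity trend. Leaving out 1 array gave 4 to 7 guidance genes higher and 6 to 8 lower in the first interval, 10 to 12 and 4 to 5 in the second, 9 to 12 and 8 to 10 over the whole day, and 3 to 7 and 2 to 5 between intervals. For all genes the ranges were 630 to 1200 higher and 754 to 1203 lower in the first interval, lowest without GD8.5 replicate 4 and replicate 3, and 844 to 1198 higher and 494 to 743 lower between intervals. The replicate block gave 7 higher and 6 lower, 11 and 4, 11 and 9 in the 3 stage comparisons, and 5 and 5 between intervals, so no count moved by over 1.5 times. Only 2 GD8.5 arrays carry the first interval, and signal near background limits Ntn4, Robo3, Sema3e and Slit1.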
